A study of Macaca fascicularis with 10 samples.

Results

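Motor and cytoskeleton genes were taken as the rows of the allelic count table whose names match kinesins, dynein and dynactin subunits, myosins, tubulins, actins and actin-related proteins, tropomyosins, alpha-actinins, spectrins, filamins, talins, large microtubule-associated proteins and neurofilaments. The rule found 71 of 7229 genes. The samples are 10 female cynomolgus macaques, Macaca fascicularis, and 1 brain region was taken from each, the dorsal raphe nucleus of the brainstem, which holds serotonin neurons. A mother and a father are labelled for every animal, so each is called a daughter. All 10 form 1 group, and the labels name no treatment, edited allele or age. The data hold reads assigned to the maternal or the paternal copy of a gene, and from them a paternal share was taken. This is how many percent of the reads of a gene in 1 daughter, both alleles summed, stand in the column labelled paternal. Shares were taken where a gene had 10 or more allelic reads in a daughter. The numbers 1 to 10 of the daughters follow the deposited sample list and have no other meaning.

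Motor proteins carry cargo along the cell's filaments. Kinesins move mostly towards the growing ends of microtubules, and so towards the axon tip in nerve cells, while cytoplasmic dynein with its cofactor dynactin moves the other way. Myosins pull on actin, and tubulins, actin and neurofilament subunits form the filaments that fill axons. Spectrins, alpha-actinins, filamins and talins crosslink actin or tie it to the membrane. Neurons depend on this system for transport over long axons, and several of its genes are linked to inherited disease of motor or sensory neurons.

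Of the 71 genes, 57 had 10 or more allelic reads in at least 1 daughter. Only 5 reached that number in all 10 daughters, 30 in 6 to 9, 18 in 2 to 5 and 4 in 1. The other 14 never reached it and have no share: ACTN3, ACTR2, ACTR5, KIF11, KIF18A, KIF18B, KLC3, MYH6, MYH8, MYO18B, MYO1F, MYO3B, MYO7B and TUBB6. Spectraplakins and the LC3 proteins had no row, so these families were not analysed here. The 57 genes gave 349 shares, with a median of 116 allelic reads behind each, against 54 over the 27887 shares of the whole table. A gene without a position that differs between the parents gives no allelic read, so these numbers are not expression levels and genes were not compared by them.

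Depth was uneven between daughters. Allelic reads ranged from 30090 in daughter 1 to 999471 in daughter 6, and the motor and cytoskeleton genes took 1.59% to 2.43% of them. Daughter 1 gave 11 shares of these genes and the other daughters 28 to 46. Summed over the genes, 47.8% (daughter 6) to 51.7% (daughter 9) of reads were paternal. Of 10 serotonin neuron markers, 7 were in the table, and summed over these, 9 of 10 daughters had reads. TPH2 had a value in 7 daughters, SLC18A2 in 4 and SLC6A4 in 2. The endothelial list had 4 of 5 markers in the table and reads in 10 daughters. The ependymal and choroid plexus list had 5 of 5 and reads in 9. Allelic reads are not expression levels, so these counts do not settle which tissue was taken. The astrocyte, oligodendrocyte, microglia and skeletal muscle marker lists had no row and were not analysed here. The RNA is of bulk tissue, so a share averages over all its cells, and fewer cells of a type and less RNA per cell cannot be told apart. The sources used here do not say how the strand entered the counting, so reads of overlapping genes may be mixed.

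Most of these genes were read about equally from both parents. Of the 349 shares, 273 (78.2%) lay between 40% and 60% paternal, against 69.8% over the whole table, where the reads behind a share were fewer. The median share was 50%. Among the 35 genes measured in 6 or more daughters, the mean share lay between 45% and 55% for 28, and it ranged from 38.9% for FLNA to 58.6% for MYO16. The SD between daughters had a median of 7.71 percentage points. Counting of reads alone would give a median of 6.08 for the same genes. Over all 2319 genes measured as often, the median SD was 9.46 and the counting value 7.14. The ratio of SD to counting value, taken gene by gene, had a median of 1.45 for the 35 genes and 1.33 over all 2319.

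**Figure D1:**
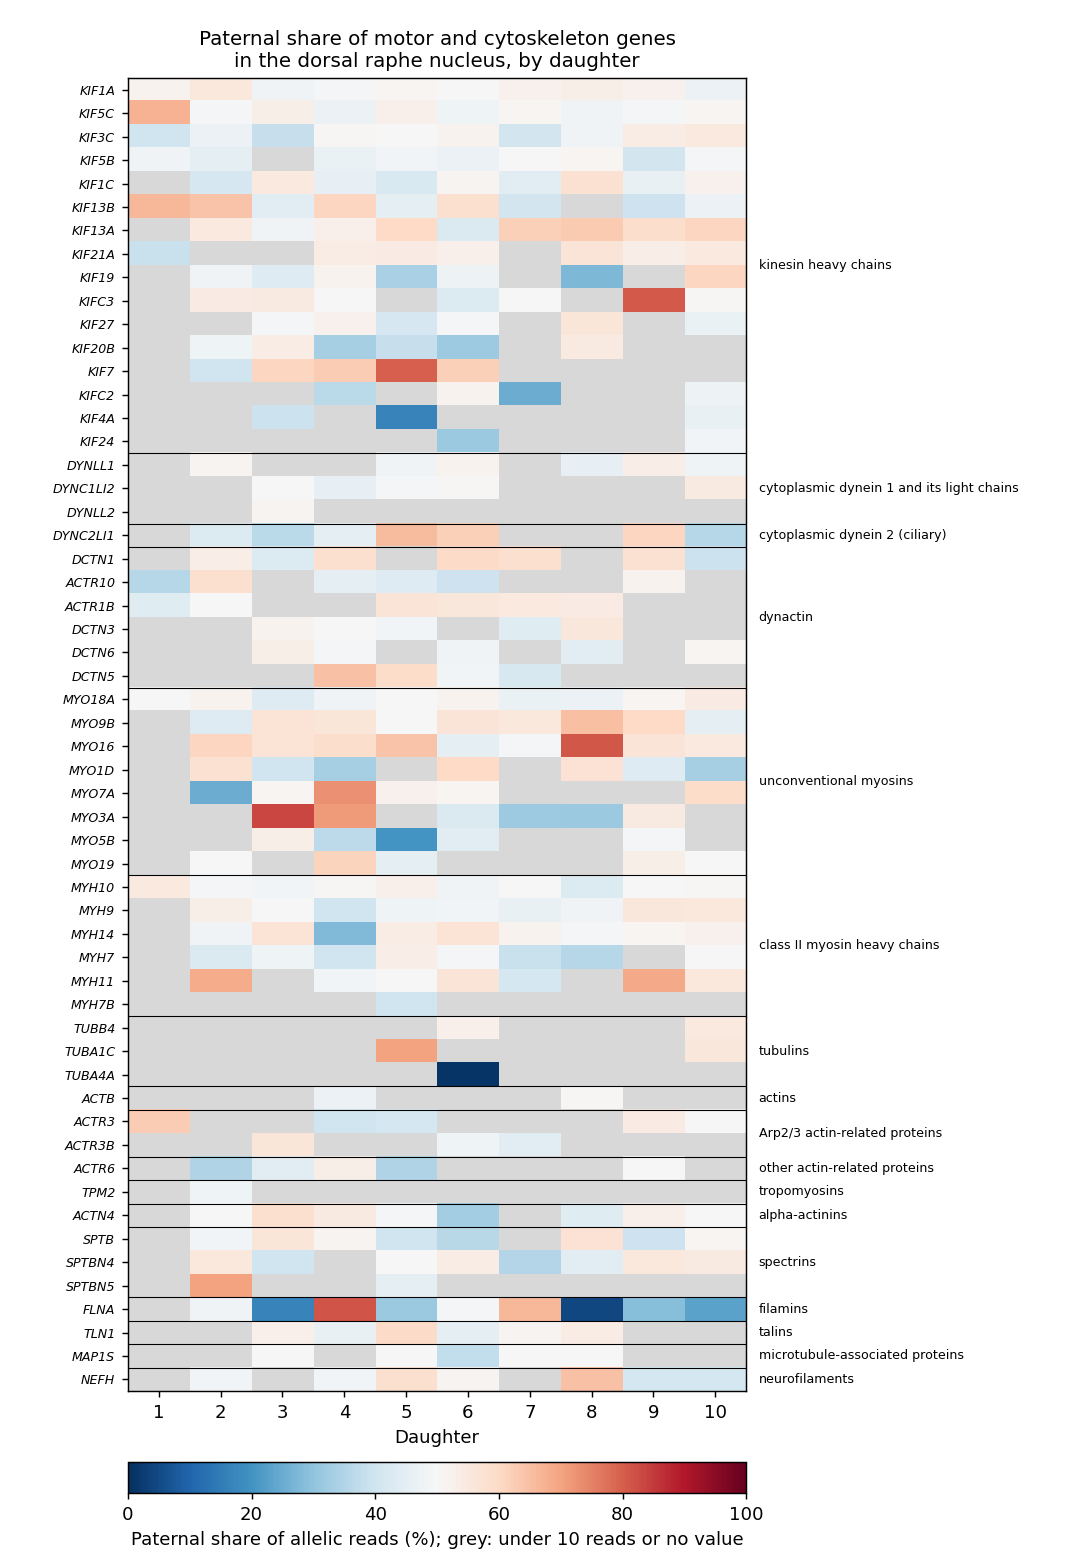
Paternal share (%, colour) of 56 motor and cytoskeleton genes with a measurement, in rows by family, in each of the 10 daughters. Grey cells had under 10 allelic reads or no value. Most cells are pale, near 50%, while the FLNA row runs from 4.35% to 81.4% and the single TUBA4A value is 1.01%.

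The first comparison asked whether a gene was read more from the allele of 1 parent in all daughters together. No motor or cytoskeleton gene passed. Of the 44 genes with enough reads to test, 0 had a Benjamini-Hochberg adjusted p under 0.05 in edgeR's quasi-likelihood test with the daughter as block, and the whole table gave 0 of 2981 (0%). The adjusted p by edgeR was 1 for each of the 44. DESeq2 also called 0. The unadjusted p by edgeR was under 0.05 for 4 genes, KIF5B, KIF13A, KIF7 and MYO16, which is 9.09% of the 44 against 3.15% over the whole table. DESeq2 gave 2 such genes of the 44, against 62 of 2981 (2.08%) over the whole table. The paternal over maternal log2 ratio was above 0 in 19 genes and below 0 in 25, with a median of -0.02 against -0.01 over all genes tested.

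The second comparison asked in which single daughters the alleles were unequal beyond counting error. An exact binomial test against equal alleles, with Benjamini-Hochberg adjustment over all 27887 shares of the table, called 33 of 349 shares (9.46%), and 8.57% over the whole table. It called 1 or more shares in 23 of the 57 genes (40.4%), against 26.1% of all measured genes. These percentages are not matched for reads or for daughters measured. The median reads behind a share were 116 here and 54 over the whole table, and calls were more frequent at higher reads, as given below. Calls to the maternal side numbered 19, with 4.55% of shares over the whole table, and calls to the paternal side 14, with 4.02%. Of the 33 shares, 5 lay beyond the usual spread of autosomal genes. That spread was taken from a beta-binomial test, chosen after seeing the data, which adds to counting error the scatter of autosomal genes in the same daughter, an SD of 4.72 to 6.11 percentage points. The 5 were 4 shares of FLNA and 1 of TUBA4A, 1.43% of the 349 shares against 2.89% over the whole table. FLNA is X-linked, and 14.3% of all X-linked shares lay beyond this autosomal spread, against 2.43% of all autosomal shares. The 28 other calls passed against counting error alone, so for these shares a difference beyond the scatter of autosomal genes in the same daughter was not detected.

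**Figure D2:**
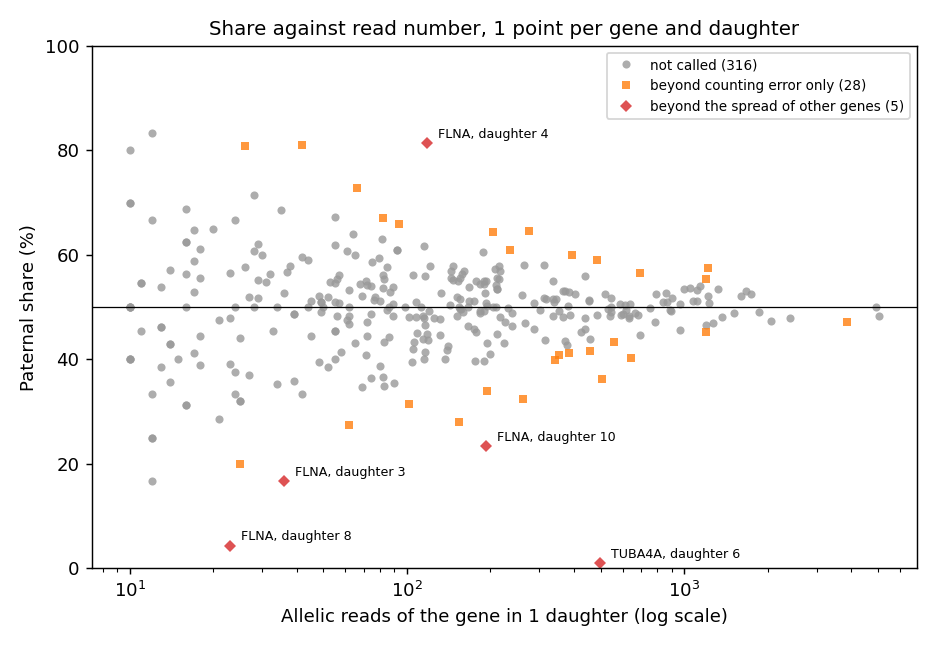
Paternal share (%) against the allelic reads behind it (log scale), 1 point per gene and daughter for the motor and cytoskeleton genes. Grey circles were not called, orange squares were called against counting error only (28), and red diamonds also against the spread of other, autosomal genes (5, all FLNA or TUBA4A).

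The share of calls followed the number of reads. Among shares with 10 to under 50 reads, 5 of 94 were called (5.32%), against 4.03% over the whole table. With 50 to under 200 reads it was 9 of 136 (6.62%), against 10.0%. With 200 to under 1000 reads it was 15 of 95 (15.8%), against 16.9%. With 1000 or more reads 4 of 24 were called (16.7%), against 34.6%. These 24 shares came from 7 genes and all lay between 40% and 60%, as did 462 of 494 (93.5%) with as many reads over the whole table.

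**Figure D3:**
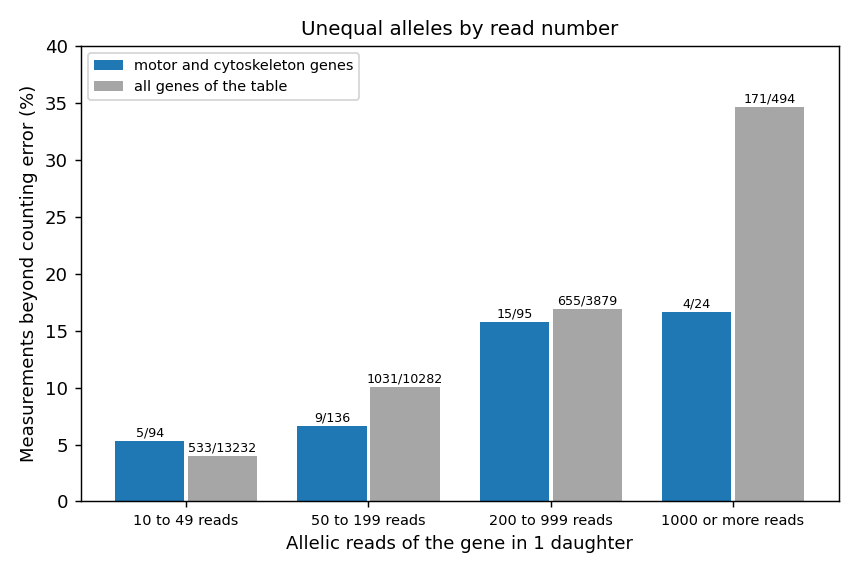
Percent of shares called unequal by the binomial test (y axis, from 0) in 4 classes of allelic reads, for the motor and cytoskeleton genes and for all genes of the table. Numbers above the bars are called over measured shares. The bars of the motor and cytoskeleton genes run from 5.32% to 16.7%, and those of all genes from 4.03% to 34.6%.

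Kinesin heavy chains formed the largest family, with 19 rows, 16 measured and 13 tested. Of their 113 shares, 87 (77.0%) lay between 40% and 60%, against 69.8% over the whole table. The binomial test called 12 unequal (10.6%), against 8.57% over the whole table. The family percentages here and below are not matched for reads. KIF1A, which carries synaptic vesicle precursors along axons, was the best covered member, with 318 to 5041 reads in each of the 10 daughters. Its share was lowest in daughter 10, at 47.1%, and highest in daughter 2, at 55.4%. The median was 51.4% and the mean 51.0% ± 2.44 (SD, n = 10), the smallest SD among the 35 genes. The extremes were both called, on opposite sides. In daughter 2, 55.4% of 1200 reads were paternal (95% Wilson interval 52.6 to 58.2), and in daughter 10 it was 47.1% of 3858 (45.5 to 48.7). In the other 8 daughters KIF1A lay between 48.4% and 53.0%.

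The heavy chains of conventional kinesin, KIF5B (present in most cells) and the neuronal KIF5C, were each measured in 9 or 10 daughters. KIF5B lay below 50% in 8 of 9 daughters, between 40.8% (daughter 9) and 51.0% (daughter 8). The median was 48.3% and the mean 47.4% ± 3.01 (SD, n = 9). Its log2 paternal over maternal ratio was -0.15 (unadjusted p = 0.0477 and adjusted p = 1 by edgeR). Single calls were made in daughter 2, with 45.2% of 1201 reads, and in daughter 9, with 40.8% of 353. KIF5C lay above 50% in 5 of 10 daughters and below in 5, with a mean of 51.7% ± 5.81 (SD, n = 10). Its highest share, 67.3% in daughter 1, rests on 55 reads, and the other 9 daughters lay between 47.2% and 53.0%. The difference between KIF5B and KIF5C was not tested.

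KIF13A and KIF13B, related kinesins that carry membrane vesicles, had wider shares. KIF13A had a mean of 55.9% ± 6.86 (SD, n = 9), above 50% in 7 of 9 daughters. Daughter 6 was lowest at 42.7% and daughter 8 highest at 63.0%, and the log2 ratio was 0.30 (unadjusted p = 0.0432, adjusted p = 1, edgeR). Daughter 5 was called, with 59.9% of 394 reads. KIF13B lay on both sides. Daughters 1, 2, 4 and 6 had 66.7%, 64.4%, 60.9% and 57.8%, from 12, 205, 235 and 147 reads. Daughters 3, 5, 7, 9 and 10 lay between 39.7% and 47.1%. No KIF13B share lay between 47.1% and 57.8%, so its daughters fell on separate sides of balance. Daughters 2 and 4 were called. The mean was 51.9% ± 10.5 (SD, n = 9), where counting alone would give an SD of 6.08.

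KIF19, a kinesin of motile cilia, had a mean of 44.7% ± 11.2 (SD, n = 7). It was called to the maternal side in daughter 5, with 33.8% of 195 reads, and in daughter 8, with 27.4% of 62, while daughter 10 had 60.6% of 188. KIFC3, a kinesin that moves the other way along microtubules, lay between 43.1% and 54.5% in 6 daughters and at 80.8% of 26 reads in daughter 9. KIF21A lay above 50% in 6 of 7 daughters, between 52.5% and 56.6%, and daughter 1 had 38.8% from 80 reads. Of the 6, daughter 8 was called, with 56.6% of 693 reads. KIF1C had a mean of 48.6% ± 5.71 (SD, n = 9), with a call in daughter 2 at 41.6% of 459 reads, and KIF3C had 47.6% ± 5.89 (SD, n = 10) with no call.

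The remaining kinesins were named after their values were seen, to account for every measured gene. KIF7, a ciliary kinesin of hedgehog signalling, had 61.1% ± 14.2 (SD, n = 5) over 10 to 29 reads, with a log2 ratio of 0.70 (unadjusted p = 0.0307, adjusted p = 1, edgeR). KIF27 had 49.04% ± 4.87 (SD, n = 6), and KIF20B, a kinesin of cell division, 43.3% ± 10.1 (SD, n = 6) over 11 to 25 reads. KIFC2 had 40.2% ± 12.1 (SD, n = 4), and KIF24 had 31.2% and 48.7% in 2 daughters. No share of these 5 genes was called.

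Cytoplasmic dynein 1 and its light chains gave 12 shares. All lay between 40% and 60% and 0 were called, against 69.8% and 8.57% over the whole table. DYNLL1, a light chain, had a mean of 49.7% ± 2.86 (SD, n = 6), from 45.8% in daughter 8 to 53.5% in daughter 9, over 437 to 1325 reads. The light intermediate chain DYNC1LI2 had 49.99% ± 3.05 (SD, n = 5), and DYNLL2 51.2% of 80 reads in daughter 3, the 1 daughter measured. Daughters lay on both sides of 50% for DYNLL1 and DYNC1LI2.

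DYNC2LI1, which belongs to the dynein that works inside cilia, was spread more widely than these. Daughters 2, 3, 4 and 10 had 43.1%, 36.6%, 45.5% and 35.9%, from 65, 82, 55 and 39 reads. Daughters 5, 6 and 9 lay on the other side, with 66.0%, 61.7% and 60.7% from 94, 115 and 61 reads. No share lay between 45.5% and 60.7%. The mean was 49.9% ± 12.6 (SD, n = 7), where counting alone would give an SD of 6.19, and only daughter 5 was called.

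Dynactin gave 33 shares from 6 genes. Of these, 29 (87.9%) lay between 40% and 60% and 3 (9.09%) were called, against 69.8% and 8.57% over the whole table. DCTN1, the large subunit that binds microtubules and dynein, lay above 50% in 5 of 7 daughters, with a mean of 52.7% ± 8.12 (SD, n = 7). Its best covered daughters were daughter 2, with 53.2% of 1113 reads, and daughter 9, with 57.5% of 1221 (95% Wilson interval 54.7 to 60.2), which was called. Below 50% were daughters 3 and 10, with 43.0% of 223 and 39.4% of 104 reads. DCTN5, a subunit of the pointed end of the dynactin filament, was called in daughters 4 and 5, with 64.5% of 276 and 59.0% of 483 reads, and had 48.6% of 484 in daughter 6 and 41.9% of 105 in daughter 7. Daughters 4 and 5 carry the same father label. The actin-related subunits ACTR1B and ACTR10 had 52.4% ± 4.72 and 45.7% ± 8.09 (SD, n = 6 each). DCTN3 and DCTN6, named after their values were seen, had 50.03% ± 4.27 and 49.3% ± 3.05 (SD, n = 5 each). These 4 genes had no call.

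Unconventional myosins gave 57 shares from 8 genes, with 3 calls (5.26%, against 8.57% over the whole table). They had a median of 45 reads per share, against 116 over all the motor and cytoskeleton genes. MYO18A had a mean of 49.4% ± 3.10 (SD, n = 10), from 43.4% to 54.2%, where counting alone would give an SD of 6.996. MYO9B had 54.3% ± 6.80 (SD, n = 9) and lay above 50% in 7 of 9 daughters. MYO16, a neuronal myosin, had the highest mean among the 35 genes, 58.6% ± 10.1 (SD, n = 9). Its share was 81.0% of 42 reads in daughter 8, which was called, 54.9% to 64.1% in daughters 2, 3, 4, 5, 9 and 10, and 49.4% and 45.2% in daughters 7 and 6. Its log2 ratio was 0.48 (unadjusted p = 0.0253, adjusted p = 1, edgeR).

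MYO7A and MYO3A, myosins of sensory cell projections, had the widest SD after FLNA among the 35 genes, on few reads. The mean of MYO7A was 51.8% ± 15.6 (SD, n = 6). Its highest share, 72.7% from 66 reads in daughter 4, was called, and its lowest, 25.0% in daughter 2, rests on 12 reads. MYO3A ran from 31.2% of 16 reads in daughter 8 to 83.3% of 12 in daughter 3, with no call. MYO5B, a motor of recycling vesicles, had 40.8% ± 13.0 (SD, n = 5), with a call in daughter 5 at 20% of 25 reads. MYO1D and MYO19, named after their values were seen, had 46.5% ± 11.7 (SD, n = 7) and 51.9% ± 5.80 (SD, n = 5) with no call.

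The class II myosins that drive contraction outside muscle, MYH9, MYH10 and MYH14, each had 1 call, all to the maternal side. These were the only calls among the 44 shares of class II myosins, 6.82% to the maternal side and 0% to the paternal side. Over the whole table it was 4.55% and 4.02%, and a lean of this family to 1 side was not tested. MYH10, the form most typical of nerve cells, had a mean of 49.9% ± 3.01 (SD, n = 10), from 43.3% in daughter 8, which was called with 559 reads, to 54.8% in daughter 1. Counting alone would give an SD of 3.69. MYH9 had 49.4% ± 4.91 (SD, n = 9), with the call in daughter 4 at 39.9% of 341 reads. MYH14 was also lowest in daughter 4, at 27.9% of 154 reads (95% Wilson interval 21.4 to 35.5), while its other 8 daughters lay between 48.1% and 56.9%. That share missed the threshold of the beta-binomial test narrowly (adjusted p = 0.0511 over all shares of the table). The striated muscle gene MYH7, the smooth muscle gene MYH11 and MYH7B were named after their values were seen. MYH7 had 44.7% ± 6.23 (SD, n = 8), MYH11 55.5% ± 10.2 (SD, n = 7), and MYH7B 40% of 10 reads in daughter 5, with no call. Reads for smooth muscle and pericyte markers, 4 of 6 in the table, summed to 16 to 370 per daughter, and their part in the MYH11 values was not tested.

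Filament proteins were thinly covered. TUBA4A, an alpha-tubulin enriched in neurons, could be measured in daughter 6 alone, where 5 of 497 reads were paternal, a share of 1.01% (95% Wilson interval 0.430 to 2.33). This was the most extreme share of all 349, with an adjusted p by the exact binomial test of 5.68e-135 and by the beta-binomial test of 1.03e-28. No other daughter had a count for TUBA4A, so whether the side belongs to the gene or to that animal cannot be told apart. TUBB4 had 52.4% of 517 and 55.1% of 178 reads in daughters 6 and 10, and TUBA1C 70% of 10 and 55.6% of 18 in daughters 5 and 10, with no call. ACTB, beta-actin, was measured in daughters 4 and 8, at 47.2% and 50.6% from 786 and 636 reads. Tubulin and actin genes have near-identical relatives and processed copies, so reads can be split between them and their allelic assignment is uncertain, as it is to a lesser degree for ACTR3 and ACTR3B, DYNLL1 and DYNLL2, and MYH7 beside MYH6. NEFH, the heavy neurofilament subunit of large axons, had a mean of 50.6% ± 8.49 (SD, n = 7), from 41.3% of 383 reads in daughter 9, which was called, to 64.7% of 17 in daughter 8. MAP1S, a microtubule-associated protein, was at 50% in 4 daughters and 37.5% of 24 reads in daughter 6, and the tropomyosin gene TPM2 had 47.8% of 115 reads in daughter 2.

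Actin-related proteins outside dynactin gave no call, while ACTN4 and SPTB were called in 1 and 2 daughters. ACTR3, which starts actin branches, had 49.7% ± 9.29 (SD, n = 5), its relative ACTR3B 49.5% ± 5.97 (SD, n = 3), and ACTR6, part of a chromatin complex, 43.4% ± 8.36 (SD, n = 5), with no call. ACTN4, an alpha-actinin, had 32.4% of 262 reads in daughter 6 (95% Wilson interval 27.1 to 38.3), which was called, and 43.9% to 57.9% in the other 7 daughters. TLN1, which links integrins to actin, had 51.4% ± 5.31 (SD, n = 6). Spectrins line the membrane of axons. SPTB, a beta-spectrin, was called in daughters 5 and 6, with 40.2% of 644 and 36.2% of 506 reads, while daughters 3 and 8 had 55.9% of 440 and 57.2% of 208. Its mean was 47.5% ± 7.89 (SD, n = 8). SPTBN4, the spectrin of nodes of Ranvier and axon initial segments, had 48.5% ± 7.71 (SD, n = 8) with no call, and SPTBN5 (also chosen after seeing values) had 70% and 45.5% from 10 and 11 reads.

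**Figure D4:**
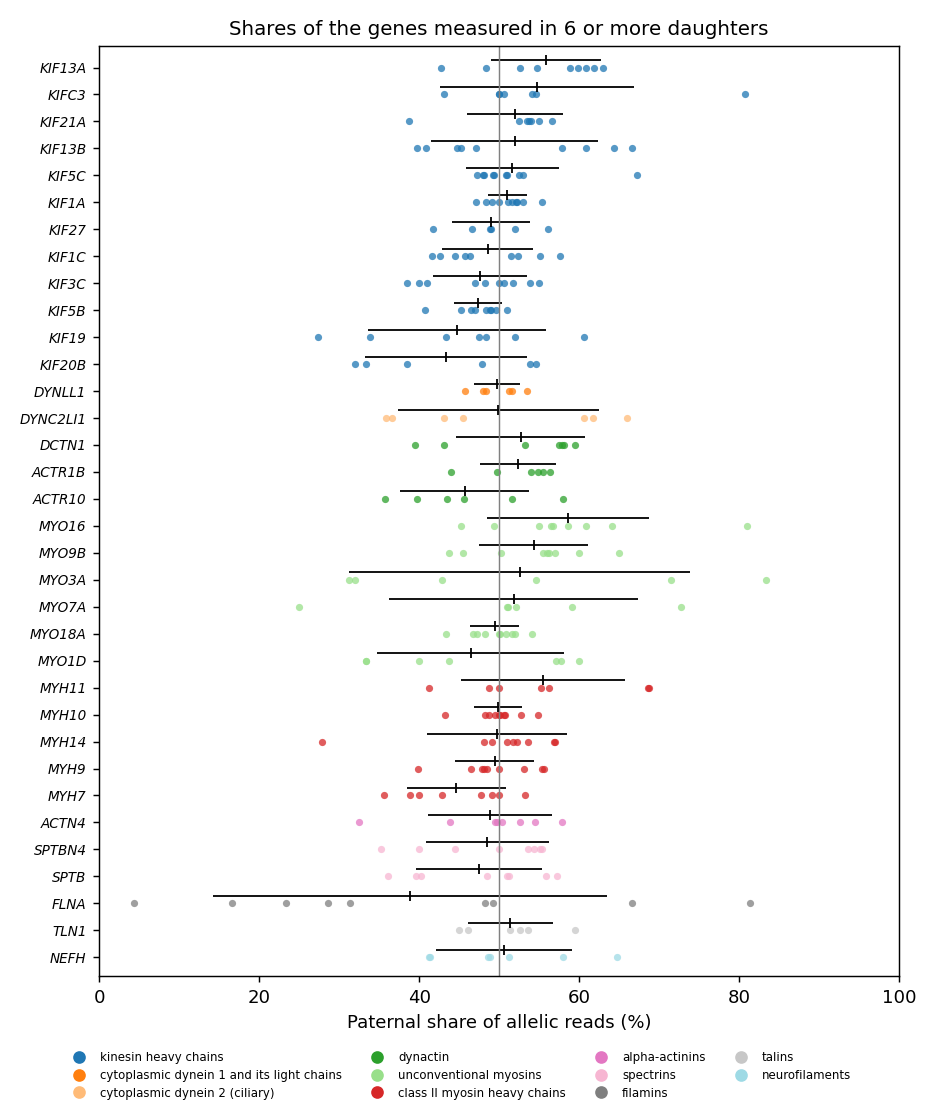
Paternal share (%) in each daughter (points, coloured by family) of 34 genes measured in 6 or more daughters, with the mean (tick) and SD between daughters (black line). KIF1A has the smallest SD (2.44) and FLNA the largest (24.6).

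FLNA stood apart from the rest. It encodes filamin A, an actin crosslinker, and lies on the X chromosome. Each cell of a female silences 1 of its X chromosomes, so X-linked genes of 1 animal can lean together to the side that stays active in more cells. FLNA was called by the binomial test in 5 of 9 daughters, the only gene here with calls in 3 or more. Daughters 3, 5, 8 and 10 were called to the maternal side, at 16.7%, 31.4%, 4.35% and 23.3% from 36, 102, 23 and 193 reads. In daughter 4 it had 81.4% of 118 reads (95% Wilson interval 73.4 to 87.4), to the paternal side. Daughters 2, 6, 7 and 9 had no call, at 48.2%, 49.2%, 66.7% and 28.6% from 56, 183, 24 and 21 reads. The mean was 38.9% ± 24.6 (SD, n = 9), where counting alone would give an SD of 7.59. Of all X-linked shares 34.2% were called, against 7.52% of all autosomal shares.

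FLNA lay on the same side of 50% as the median of the other X-linked genes in 8 of 9 daughters. In daughter 4 that median was 73.5% over 94 genes, and FLNA had 81.4%. In daughters 3, 5 and 10 it was 27.7%, 27.7% and 29.7%, and FLNA had 16.7%, 31.4% and 23.3%. In daughters 2 and 6 the median was 39.4% and 44.7%, and FLNA was nearer to balance. In daughter 7 the median was 57.1% beside 66.7% for FLNA. The 95% Wilson interval of FLNA included 50% in daughters 2 (35.7 to 61.0), 6 (42.0 to 56.4) and 7 (46.7 to 82.0), so its side there is uncertain. In daughter 9 the median was 43.2%, with a lower quartile of 38.7%, and FLNA lay below that quartile at 28.6%. FLNA also lay below the lower quartile in daughter 3 (23.3%). It lay above the upper quartile in daughters 2, 4 and 7 (45.5%, 77.9% and 64.3%). In daughters 5, 6 and 10 it lay between the quartiles. Daughter 8 was the exception in side. There the other 41 X-linked genes had a median of 52.8%, with quartiles of 45.9% and 61.6%, while FLNA had 1 paternal read of 23 (95% Wilson interval 0.772 to 21.0). This agreement is a description with no test. The other X-linked gene is the mitotic kinesin KIF4A. In daughters 3, 5 and 10 it had 39.1%, 16.7% and 46.2% from 23, 12 and 13 reads. These shares lay below 50%, as did the X-linked median of the same daughters. The 95% Wilson interval of KIF4A included 50% in daughters 3 (22.2 to 59.2) and 10 (23.2 to 70.9), so its side there is uncertain. Under the read minimum, daughter 6 had 8 paternal reads of 9, opposite to its X-linked median of 44.7%, and daughter 4 had 2 of 4. Over autosomal genes alone 8.62% of the shares of motor and cytoskeleton genes were called, beside the 7.52% above.

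**Figure D5:**
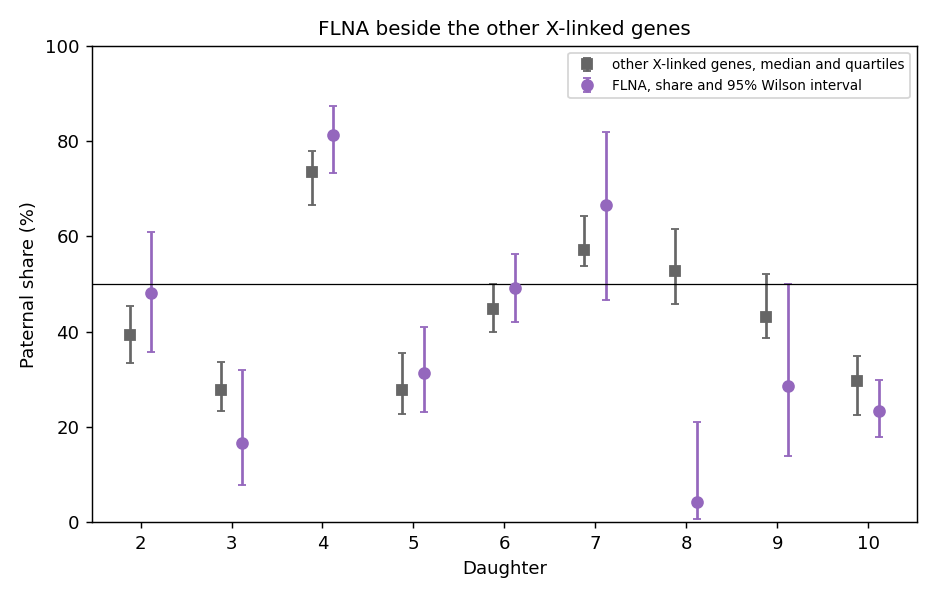
Paternal share (%) of FLNA with its 95% Wilson interval (purple circles), beside the median and quartiles of the other X-linked genes with 20 or more reads (grey squares), in the 9 daughters in which FLNA was measured. FLNA lies on the side of the X-linked median in 8 daughters and away from it in daughter 8, at 4.35% against 52.8%. Its interval includes 50% in daughters 2, 6 and 7.

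Reading from almost 1 allele alone was rare. With 20 or more reads, 2 of 306 shares had 90% or more of reads on 1 allele, TUBA4A in daughter 6 and FLNA in daughter 8, both to the maternal side. The background over all genes was 1.6% of shares. A position called in error as differing between the parents gives the same appearance, and the part of this was not tested.

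Of the 23 genes with a call, 16 were called in 1 daughter and 7 in more. The 7 are 12.3% of the 57 measured genes, against 8.51% of all measured genes, again not matched for reads or for daughters measured. FLNA and KIF1A were called on both sides, in different daughters. Without X-linked genes, 6 of the 45 pairs of daughters had 1 gene called in both, and none had more. Counted over genes and pairs of daughters together, 6 of 1059 cases (0.567%) were called in both, against 1.59% over the whole table. The genes were KIF13B in daughters 2 and 4, KIF5B in daughters 2 and 9, DCTN5 in daughters 4 and 5, SPTB in daughters 5 and 6 and KIF19 in daughters 5 and 8, on the same side in each pair, and KIF1A in daughters 2 and 10, on opposite sides. Of these pairs, daughters 4 and 5 share a labelled father and the others share no labelled parent. The other 4 pairs with a labelled parent in common, daughters 1 and 7, 1 and 8, 7 and 8, and 6 and 10, had 8 to 34 genes measured in both and none called in both.

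The titles of the daughters carry the prefixes 10203 (6 daughters) and 10480 (4 daughters), the only grouping besides the parents that the labels give. Within prefix 10203 the binomial test called 9.63% of the shares of motor and cytoskeleton genes, against 9.36% over the whole table. Within 10480 it called 9.16%, against 7.47%. The parental difference itself differed between the prefixes for 0 of the 44 genes by edgeR's interaction test with Benjamini-Hochberg adjustment, against 0.0335% over the whole table. The unadjusted interaction p by edgeR was under 0.05 for KIF13A, KIF13B and MYO3A. That is 3 of the 44 genes, against 106 of 2981 (3.56%) over the whole table. By DESeq2 it was 1 of the 44, for which no whole-table value is given here.

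The genes that work with these proteins were taken from lists of pathway genes. Of 61 microtubule and motor partners 27 were in the table and 17 were tested, of 71 actin and spectrin partners 30 and 20, and of 15 intermediate filament genes and linkers 8 and 1. With edgeR and Benjamini-Hochberg adjustment 0 were called in either direction, with 0, 1 and 0 at an unadjusted p under 0.05. In single daughters the binomial test called 12 of 156, 12 of 156 and 2 of 26 shares, 7.69% in each list, against 8.57% over the whole table. DPYSL2, which binds tubulin in growing axons, had 50.2% ± 2.49 (SD, n = 9), the collapsin response mediator CRMP1 47.8% ± 5.46 (SD, n = 10), the tubulin cofactor TBCD 50.9% ± 4.45 (SD, n = 10) and MAPK8IP3, a cargo adaptor of kinesin and dynein, 53.0% ± 4.62 (SD, n = 9). Of the actin and spectrin partners, ANK3, which anchors spectrin at the axon initial segment, had 50.9% ± 5.25 (SD, n = 10), ADD2, which caps actin, 51.5% ± 4.13 (SD, n = 9) and CORO1A 49.3% ± 7.02 (SD, n = 8). EPB41L1, which ties spectrin to membrane proteins, lay below 50% in 9 of 9 daughters. Its lowest share was 43.9%, its highest 49.8% and its mean 47.2% ± 2.58 (SD, n = 9, unadjusted p = 0.0564 and adjusted p = 1 by edgeR). Of the intermediate filament list, LMNB2 had 48.0% ± 4.89 (SD, n = 9), PLEC 50.4% ± 1.65 and PPL 53.3% ± 7.74 (SD, n = 4 each), and the neuronal filament gene INA 50.4% ± 4.43 (SD, n = 3).

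Some partner genes were read almost wholly from 1 allele in single daughters. The actin severing protein CFL1 had 91.7%, 98.2% and 98.2% paternal in daughters 6, 7 and 8, from 241, 167 and 55 reads. In daughter 9 it had 1.32% of 76 reads. In daughters 4, 5 and 10 it had 46.7%, 63.6% and 53.8%, with no call, from only 15, 33 and 13 reads. Others with 90% or more of 20 or more reads on 1 allele, named after their values were seen, were BICD1, MAP9 and MAPT in 1 daughter each, TPPP and SYNM in 2 each, and VCL in 1. With CFL1, the lists held 5 such shares of 142 among microtubule partners, 5 of 140 among actin partners and 2 of 23 among intermediate filament genes, beside the 1.6% over all genes. MAPT, the tau gene, had 5.63% from 71 reads in daughter 5 and lay between 48.2% and 64.6% in its 8 other daughters. SYNM had 0% and 1.43% in daughters 4 and 6, from 63 and 70 reads.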

How the data were processed

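The authors' deposited table holds whole-number allelic counts, in a maternal and a paternal column for every daughter (20 columns). Of its 7229 genes, between 1753 (daughter 1) and 4816 (daughter 5) had a value. The labels' protocols name a stranded total RNA kit with removal of ribosomal RNA, and also an antibody step on nuclei that does not belong to RNA libraries. Novoalign is the aligner in the submitters' processing notes, and the file headers name macFas5 as the build. For phasing, and for the positions that were counted, the sources used here give nothing.

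From these counts, edgeR 4.0.16 (R 4.3.3) fitted a quasi-likelihood model with robust settings, the daughter as block, and library size as the sum of both alleles. Genes needed 10 or more reads in 5 or more daughters, and a daughter without a value entered as 0 in both columns. DESeq2 1.42.0 was an alternative. Shares were tested by a two-sided exact binomial test, and the beta-binomial test took its spread from autosomal genes with shares of 20% to 80%. Wilson intervals hold for counting error alone, as reads are not independent molecules. Whether edgeR would call parental differences as small as those of the motor and cytoskeleton genes was not tested. Other alternatives were TMM factors, other read minimums, no block, and leaving out each daughter.

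Chromosomes were found by symbol in a RefSeq gene list for T2T-MFA8v1.1, which held 68 of the 71 genes. That is not the build of the counts, so no coordinates are given. A rule on coverage, calls, spread and X linkage named 44 of the 57 measured genes and 13 partner genes, and the other 13 measured genes were added with their values in view. Of the measured genes, 1 is counted in the totals and not reported here. The members and lists were chosen with earlier results of these data known. Computation used Python 3.11.15 with pandas 2.3.3, NumPy 2.4.6, matplotlib 3.10.9 and SciPy 1.17.1.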

Additional observations from a re-analysis of the deposited data

Results flagged for a closer look

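In 6 of 58 genes tested with 4 to 10 daughters, 1 daughter lay far from the others by Dixon's criterion. Chance gives this in about 1 of 20 groups of equally precise values. The shares here rest on unequal reads, so that rate does not hold for them. Of the 6 cases, 3 were in daughter 1, the daughter with fewest reads. KIF5C had a paternal share of 67.3% of 55 reads there (95% Wilson interval 54.1 to 78.2), against 47.2% to 53.0% in the others. KIF21A had 38.8% of 80 reads (28.8 to 49.7), against 52.5% to 56.6%. The partner gene DPYSL2 had 44.1% of 220 reads (37.7 to 50.7), against 49.6% to 52.3%. MYH14 had 27.9% of 154 reads in daughter 4 (21.4 to 35.5), against 48.1% to 56.9%. KIFC3 had 80.8% of 26 reads in daughter 9 (62.1 to 91.5), against 43.1% to 54.5%. MAP1S had 37.5% of 24 reads in daughter 6 (21.2 to 57.3), where its 4 other daughters were at 50%, an interval that includes them.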

How the results depend on the processing

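No motor or cytoskeleton gene was called between the parental columns under any alternative run (TMM factors, no filter, 20 or more reads, DESeq2, no replicate block, or leaving out each daughter), and the range without 1 daughter was 0 to 0. Over the whole table the count was 0, 2 without a read filter (FAM199X and ZIM2) and 0 to 1 without 1 daughter (TSPAN7 without daughter 4). With no replicate block it was 0, with 0 genes at an unadjusted p under 0.05. Without the block, differences in read number between daughters enter the spread, so that run could hardly call a gene and is no separate check. The prefix interaction was called for 1 gene of the table (CDIPT), 0 with DESeq2 and 0 without a filter, and 0 to 2 without 1 daughter, and for 0 of the motor and cytoskeleton genes in each case. The beta-binomial test, added after seeing the data, lowered the unequal shares from 9.46% to 1.43%, and from 8.57% to 2.89% over the whole table. With a minimum of 50 reads the binomial test called 13.3%, against 14.1% over the whole table, so the order of the values turned. Shares on almost 1 allele numbered 1 of 255 with 50 or more reads and 7 of 306 at a limit of 80%, and 1 to 2 without 1 daughter (1 without daughter 6 and 1 without daughter 8). Shares from few reads have wide intervals, and 14 genes had no share.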
